A study of Mus musculus with 2 samples.

Results

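The genes described here encode the coats and GTPases that move proteins out of the endoplasmic reticulum (ER) and through the Golgi, and the channel that brings proteins into the ER. They were taken by symbol from the protein-coding genes of the GENCODE mouse annotation (mm10): symbols that begin with Sec, Tmed, Arf or Arl and a digit, or with Cop and one of the letters a, b, e, g or z. The rule took 81 of 21938 genes, which fall by role into 10 families. It also took a few genes that share only the name: Sec1 encodes a fucosyltransferase, the Sec14l genes encode lipid-binding proteins, and the Arl6ip, Arl2bp and Arl14ep genes encode proteins that bind Arl GTPases.

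H3K79me2, dimethylation of lysine 79 of histone H3, was mapped by ChIP-seq in macrophages grown from the bone marrow of C57BL/6J mice and left without stimulation. There was 1 group of 2 biological replicates, each library made from 10 ng of DNA. Both replicates carry the same donor identifier, the sex and age of the mice are not recorded, and separate animals or cultures are not stated. The values are bases lying under 4 deposited peak lists, 1 for each replicate, 1 called on pooled reads and 1 that the authors derived from both replicates (the replicated list).

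H3K79me2 is placed by the methyltransferase Dot1l, which travels with elongating RNA polymerase, so the mark lies over the 5′ part of transcribed genes. COPII vesicles leave the ER for the Golgi, COPI vesicles carry proteins back and between Golgi cisternae, and p24 proteins span both kinds of vesicle and recruit cargo. Arf GTPases switch on at the membrane to load COPI and other coats, and their Arl relatives work at the Golgi, at lysosomes and in cilia. In macrophages this machinery carries cytokines and surface receptors outward.

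The replicated list held 15559 peaks over 93.2 Mb, replicate 1's list 63.5 Mb and replicate 2's list 114 Mb. Read counts are not part of peak lists, so sequencing depth is unknown and no interval or test between samples could be computed. Of 10 macrophage marker genes, 8 were marked by the rule given next and all 10 had bases under the replicated list. None of 19 markers of lymphocytes and other cell types had a base under it. In a bulk sample, a mark in fewer cells and less of the mark per cell cannot be told apart.

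Marked genes are those with 200 bp or more of the first 3 kb under a list, measured inward from the outermost 5′ end in the annotation. By the replicated list 51 of the 81 genes (63%) were marked, against 30.3% of all protein-coding genes. The pooled list marked 54 (66.7%, against 34.3%). Replicate 1's list marked 47 (58.0%, against 27.2%) and replicate 2's list marked 57 (70.4%, against 35.6%). Every one of the 47 was also marked in replicate 2, which is 58.0% of the members against 27.2% of all genes marked in both replicates. Unmarked means that no peak was called there. It does not show that the mark was absent.

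The secretory genes divided by family. All 6 Arf GTPase genes and all 8 genes of the Sec61 translocon and signal peptidase were marked, as were 9 of 12 COPII genes and 6 of 8 COPI genes. The p24 cargo receptors had 6 of 11 marked, the Arl-binding genes 5 of 7 and the Arl GTPases 9 of 20. The Sec22 and Sec14-like families had 1 marked gene each, of 3 and 5, and Sec1 had no covered base in any list. The families are small, and 18 of the 81 genes overlap another coding gene, whose peaks cannot be told from theirs. Of the 63 that overlap none, 41 (65.1%) were marked, against 28.0% of all coding genes without an overlap.

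**Figure D1:**
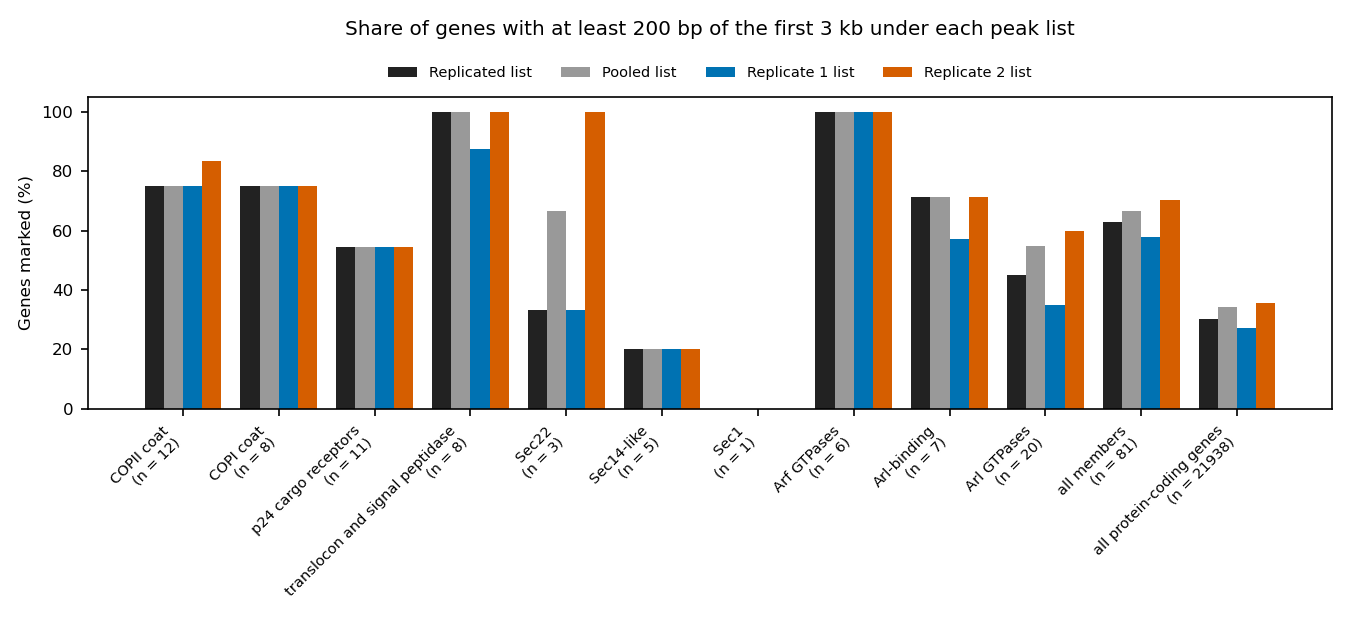
Percent of genes in each family with at least 200 bp of the first 3 kb covered (vertical axis), by peak list (bar colour), with all members and all protein-coding genes at the right. The Arf bars stand at 100% in all 4 lists. Between lists the Sec22 family runs from 1 of 3 to 3 of 3 genes, and the Arl GTPases run from 7 to 12 of 20.

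The inner COPII coat binds cargo. Sec23a and Sec23b encode the subunit that stimulates the GTPase of Sar1, and Sec24a to Sec24d encode the subunit that holds cargo. Sec23b had 3000 bp of its first 3 kb covered in the replicated list, 2599 bp in replicate 1 and 3000 bp in replicate 2. Sec23a had 2586 bp, 759 bp and 2592 bp, and only 3322 bp (6.19%) of its 53635 bp gene. Both Sec23 genes were thus covered near the start alone, with Sec23a the weaker in replicate 1. Folds are the authors' value over the control, given here and further on for the highest peak that touches the first 3 kb in the replicated list. They were 11.4 for Sec23b and 4.69 for Sec23a.

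The Sec24 genes differed in how far the mark ran. Sec24b had the longest coverage among COPII genes, 30383 bp (38.6% of the gene) in the replicated list, 20739 bp in replicate 1 and 41033 bp in replicate 2. Sec24c had 7689 bp (37.4%), 4939 bp and 7730 bp. Sec24d, a longer gene than either, had 8798 bp (8.96%), 5138 bp and 9974 bp. Extent did not follow gene length among these 3. Sec24b lies on chromosome 3 from 129982759 to 130061553.

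Sec24a was unmarked at its outermost 5′ end, on chromosome 11 at 51763634, where replicate 2 alone had 346 bp. That end belongs to a transcript annotated as a retained intron, 53 bp from the start of the divergent Sar1b, which encodes the COPII GTPase and had 3000 bp of its first 3 kb covered. The coding transcripts of Sec24a start 7016 to 7423 bp further in. At those 4 starts the replicated list covered 2438 to 2845 bp, replicate 1 2291 to 2698 bp and replicate 2 2595 to 3000 bp. So all 4 cargo-binding Sec24 genes had the mark at an annotated start.

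The outer cage and the exit-site scaffold each come in a pair of genes of which only the a form was marked. Sec31a, the cage subunit, had 2750 bp of its first 3 kb covered in the replicated list, 2599 bp in replicate 1 and 2783 bp in replicate 2. Sec16a, the scaffold at ER exit sites, had 2848 bp, 2731 bp and 2861 bp. Sec31b and Sec16b had no covered base in any of the 4 lists, over genes of 28908 bp and 61698 bp. Sec31b overlaps Gm20538, another coding gene. Sec13, the partner of Sec31, was covered over its whole first 3 kb (3000 bp, 2891 bp and 3000 bp), and Sec23ip, which binds Sec23, had 2982 bp, 2835 bp and 2996 bp.

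**Figure D2:**
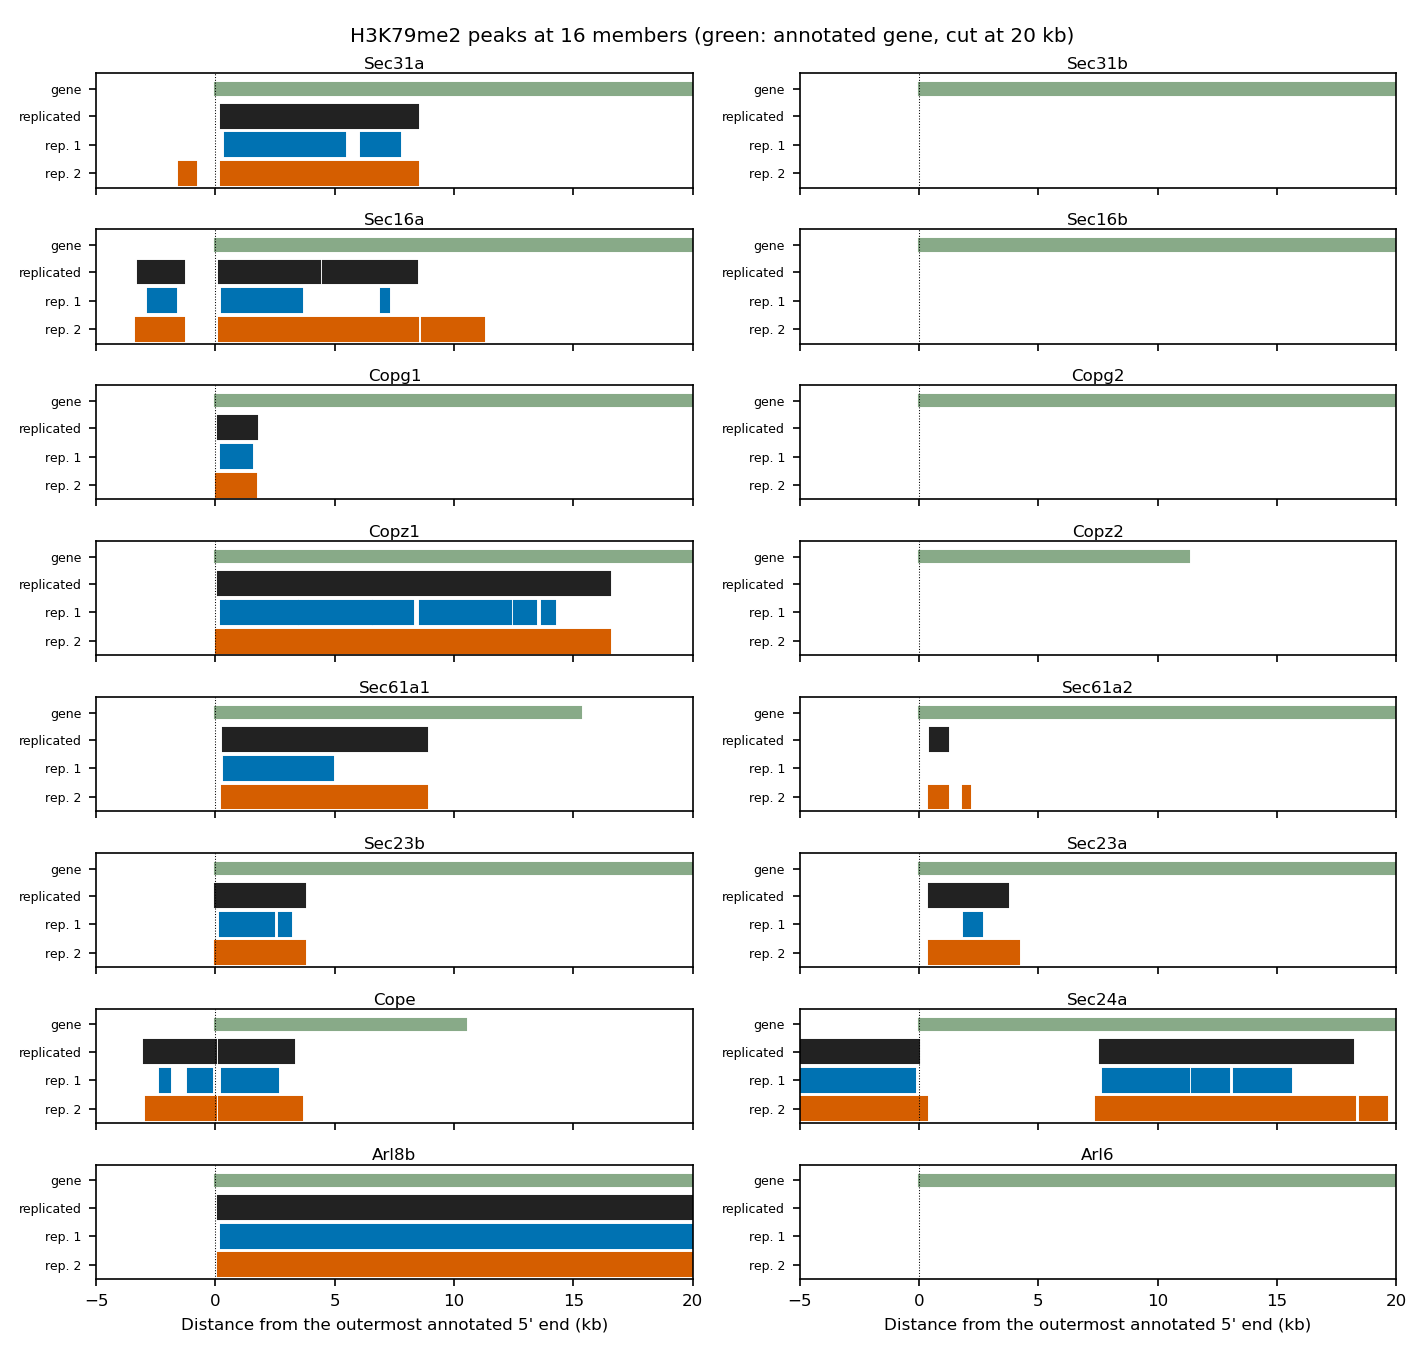
Peaks along selected members, drawn by distance from the outermost 5′ end (horizontal axis, kb), with 1 row for each of 3 lists under the annotated gene. Paralogues stand side by side, except that Cope beside Sec24a and Arl8b beside Arl6 were not grouped as paralogues. Sec31b, Sec16b, Copg2, Copz2 and Arl6 have no peak, and inside Sec24a the replicated list begins past 7016 bp, beyond a gap from the peak on the Sar1b side.

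The promoters of these pairs are printed because they differ in the number of CpG dinucleotides, the base step that marks CpG-island starts. They come from the RefSeq promoter table (GRCm38.p6) and stop at the gene's outermost annotated 5′ end. Each reads 5′ to 3′ on the gene's strand, with every CpG in capitals. Sec31a (chr5:100416235-100416484, minus strand) has 27 CpGs in 250 bases and Sec31b (chr19:44545865-44546098, minus strand) has 9 in 234. Sec16a (chr2:26445217-26445466, minus strand) has 20 in 250 and Sec16b (chr1:157506546-157506727, plus strand) has 1 in 182.
Sec31a: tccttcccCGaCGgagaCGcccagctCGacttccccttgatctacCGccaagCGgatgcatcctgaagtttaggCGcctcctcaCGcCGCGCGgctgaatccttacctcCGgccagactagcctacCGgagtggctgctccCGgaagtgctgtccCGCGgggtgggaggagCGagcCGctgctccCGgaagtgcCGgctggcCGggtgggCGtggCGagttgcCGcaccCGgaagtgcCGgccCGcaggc
Sec31b: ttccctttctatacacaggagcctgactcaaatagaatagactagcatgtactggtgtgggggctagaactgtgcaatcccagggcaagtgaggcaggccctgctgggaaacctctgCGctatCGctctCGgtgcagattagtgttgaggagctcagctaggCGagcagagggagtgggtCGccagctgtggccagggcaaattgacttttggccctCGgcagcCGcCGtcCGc
Sec16a: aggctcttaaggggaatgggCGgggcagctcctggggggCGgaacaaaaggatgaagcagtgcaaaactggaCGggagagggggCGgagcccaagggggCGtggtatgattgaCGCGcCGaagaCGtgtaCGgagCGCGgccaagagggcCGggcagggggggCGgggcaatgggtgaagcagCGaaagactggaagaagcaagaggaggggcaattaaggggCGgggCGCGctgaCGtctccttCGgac
Sec16b: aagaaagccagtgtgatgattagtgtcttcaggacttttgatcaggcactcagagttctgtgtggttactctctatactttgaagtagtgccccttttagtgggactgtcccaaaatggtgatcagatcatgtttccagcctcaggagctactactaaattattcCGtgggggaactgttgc

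The COPI coat, called coatomer, binds the membrane as 1 preassembled complex, and its genes also differed between paralogues. Copa, Copb1, Copb2 and Cope, which encode the α, β, β′ and ε subunits, had 2724 to 3000 bp of their first 3 kb covered in the replicated list. In replicate 1 these 4 had 2337 to 2869 bp and in replicate 2 they had 2746 to 3000 bp. Copz1, for the ζ subunit, was covered furthest: 16427 bp (60.5%) of the gene in the replicated list, 13219 bp in replicate 1 and 16510 bp in replicate 2. Copb1, at 3879 bp (9.91%), had coverage only at its start.

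The γ and ζ subunits each have a second gene, and neither second gene had a covered base in any list. Copg1 had 1613 bp, 1315 bp and 1651 bp of its first 3 kb covered, the least of the marked COPI genes, and no base further in. Copg2, a gene of 149241 bp that overlaps the imprinted gene Mest, had none, and nor did Copz2. CpG content did not divide the γ pair as it did the Sec31 and Sec16 pairs, which is why both promoters are printed. The marked Copg1 (chr6:87887690-87887813, plus strand) has 6 CpGs in 124 bases and the unmarked Copg2 (chr6:30896795-30897044, minus strand) has 19 in 250. Over 500 bp on each side of the start, CpG occurred at 0.52 of its expected frequency at Copg1 and 0.79 at Copg2. It did not divide the ζ pair either, at 0.60 for the marked Copz1 and 0.66 for the unmarked Copz2.
Copg1: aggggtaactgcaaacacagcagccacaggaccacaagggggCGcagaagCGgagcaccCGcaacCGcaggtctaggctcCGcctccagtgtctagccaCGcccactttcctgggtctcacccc
Copg2: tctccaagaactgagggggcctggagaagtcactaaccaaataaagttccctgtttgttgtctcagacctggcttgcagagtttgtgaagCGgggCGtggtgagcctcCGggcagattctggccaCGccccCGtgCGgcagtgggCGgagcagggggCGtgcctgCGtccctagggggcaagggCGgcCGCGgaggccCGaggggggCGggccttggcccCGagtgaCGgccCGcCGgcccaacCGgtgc

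Copa, whose gene overlaps Ncstn, had a fold of 29.7, with 7631 bp covered in the replicated list, 5511 bp in replicate 1 and 8329 bp in replicate 2. Cope shares its promoter with the RNA helicase gene Ddx49, whose start lies 29 bp away in the opposite direction. Ddx49 had 2969 bp of its first 3 kb covered and Cope 2846 bp, so the pair lay under peaks on both sides. Between those peaks was a gap of 154 bp (chr8:70302531-70302684).

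The p24 family forms mixed complexes in ER-to-Golgi vesicles. Tmed10, a core subunit of these complexes, had 28914 bp (84.5%) of its gene covered in the replicated list, 27603 bp in replicate 1 and 30597 bp in replicate 2. Tmed2, its β-class partner, had 7676 bp (78.2%), 6485 bp and 7650 bp. Their folds were 32.3 and 27.4. Both genes were covered from near the start over most of their length in both replicates. Tmed10 lies on chromosome 12 from 85340614 to 85374847 and Tmed2 on chromosome 5 from 124540695 to 124550506.

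Tmed4, Tmed5, Tmed7 and Tmed8 were also marked, with 1816 to 2773 bp of the first 3 kb in the replicated list. Replicate 1 had 739 bp at Tmed4 and 1185 bp at Tmed8, against 2087 bp and 2320 bp in replicate 2. Tmed5, Tmed7 and Tmed8 overlap Mtf2, Ticam2 and Samd15. Among the 6 p24 genes that overlap no coding gene, 3 were marked.

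Tmed9 was unmarked at its outermost end in all 4 lists, but a second coding start 19437 bp further in had 2148 bp, 1852 bp and 2609 bp covered. Tmed1, Tmed3, Tmed6 and Tmed11 had no covered base in any list. Tmed1 overlaps Dnm2 and Tmed11 overlaps Vmn2r8. The p24 genes thus divided into 7 with the mark at a coding start and 4 with none.

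The Sec61 channel, made of α, β and γ subunits, passes new proteins into the ER. Sec61a1, for the main α subunit, had 2703 bp of its first 3 kb covered in the replicated list, 2659 bp in replicate 1 and 2717 bp in replicate 2. Sec61b had 2928 bp, 2623 bp and 2903 bp, and Sec61g had 2721 bp, 2061 bp and 2734 bp. The second α gene, Sec61a2, had 752 bp in the replicated list, none in replicate 1 and 1084 bp in replicate 2, and it overlaps Nudt5. Each subunit therefore had 1 gene covered in both replicates, with Sec61a2 resting on replicate 2.

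Sec62 and Sec63 assist translocation, and Sec63 recruits the chaperone BiP. Sec63 was covered over 24905 bp (35.1%) in the replicated list, 20363 bp in replicate 1 and 25090 bp in replicate 2. Sec62 had 8230 bp, 6759 bp and 12085 bp. Both genes for the catalytic subunit of signal peptidase, which cuts signal peptides, were marked. Sec11a had 14315 bp (33.4%), 10303 bp and 17670 bp, and overlaps Nmb. Sec11c had 11677 bp (68.0%), 9265 bp and 11713 bp, with a fold of 28.0.

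Sec22b encodes a SNARE of ER-to-Golgi traffic that is also found on phagosomes. It had 3000 bp of its first 3 kb covered in the replicated list, 2811 bp in replicate 1 and 3000 bp in replicate 2. Its relatives Sec22a and Sec22c, whose proteins lack the SNARE motif, had no base in the replicated list or in replicate 1. Replicate 2 had 467 bp at Sec22a and 2121 bp at Sec22c, so all 3 genes were marked in replicate 2's list and 1 in replicate 1's. Sec14l1 had 28487 bp (64.6%), 24591 bp and 28875 bp. Sec14l2, Sec14l3, Sec14l4 and Sec14l5 had none in any list.

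Arf GTPases fall into 3 classes: Arf1, Arf2 and Arf3 recruit coats at the Golgi, Arf4 and Arf5 act in the early pathway, and Arf6 acts at the plasma membrane. Arf1 was covered almost end to end, 16505 bp (97.9%) of its gene in the replicated list, 15870 bp in replicate 1 and 16535 bp in replicate 2. Its fold of 32.7, that of a peak reaching beyond the first 3 kb, was the highest of the 81 genes in the replicated list. It stood at rank 56 of the 6726 coding genes with a peak touching the window. The gene lies on chromosome 11 from 59211412 to 59228270.

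Arf3 had 20302 bp (76.4%) covered, with 14222 bp in replicate 1 and 20399 bp in replicate 2. Arf2 had 12362 bp (66.5%), 7312 bp and 12222 bp. Arf4, which overlaps Pde12, had 15908 bp (58.9%), 14113 bp and 16316 bp. In the replicated list these 3 Arf genes were covered over more than 50% of their length, while replicate 1 covered 39.3% of Arf2.

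Arf5 and Arf6 are short. Arf5, a gene of 3043 bp that overlaps Gcc1, had 1542 bp covered in the replicated list, 611 bp in replicate 1 and 1621 bp in replicate 2. Its fold, 5.86, was the lowest of the Arf genes. Arf6, a gene of 1634 bp that overlaps Gm9887, had 1085 bp, 1040 bp and 1094 bp. Peaks ran past the annotated 3′ end at 4 members in the replicated list. At Arf6 the run was 6006 bp, with 4181 bp in replicate 1 and 2909 bp in replicate 2. At Arf4 it was 3994 bp, 3599 bp and 4157 bp, so the order of the pair turned in replicate 2. Arf1 had 2004 bp, 1033 bp and 2579 bp, and Arl11 418 bp, 232 bp and 470 bp. No other marked member was covered through its 3′ end in the replicated list.

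The Arl GTPases had members with near-complete coverage and members with none. Arl8b and Arl8a, which attach lysosomes to kinesin and so place them in the cell, were both covered over most of their length. Arl8b had 41071 bp (97.4%) in the replicated list, 35216 bp in replicate 1 and 41324 bp in replicate 2. Arl8a had 7412 bp (78.5%), 6688 bp and 7443 bp. Their folds were 32.3 and 31.7, in the same range as those of Arf1 and Tmed10 in the replicated list. In replicate 2's list Arl8b had 25.4, below Arl8a (38.4), Arf1 (41.5) and Tmed10 (38.6). Replicate 1's list gave 22.2, 21.4, 25.2 and 21.5 in the same order. Arl8b lies on chromosome 6 from 108783099 to 108825278 and Arl8a on chromosome 1 from 135146824 to 135156269.

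Arl1 and Arl5a, GTPases of the trans-Golgi, and Arl4c, which recruits Arf exchange factors to the plasma membrane, were marked in every list. Arl1 had 4913 bp of its gene covered, 3628 bp in replicate 1 and 4959 bp in replicate 2. Arl5a had 8543 bp, 7354 bp and 9038 bp. Arl4c had 4451 bp, 4193 bp and 4876 bp, and a fold of 25.5. In the Arl4 group only Arl4c had covered bases: Arl4a and Arl4d, both with CpG-rich starts, had none in any list.

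Arl5b, the close relative of Arl5a, was unmarked at its outermost end, but its next coding start 5845 bp further in had 2730 bp covered in the replicated list, 1563 bp in replicate 1 and 2754 bp in replicate 2. Arl5c had 1569 bp in replicate 2 and 1228 bp in the pooled list, and none in replicate 1 or in the replicated list. Arl11, a short gene of 2184 bp, had 1445 bp, 1201 bp and 1941 bp. Arl15, the longest member at 362957 bp, had 1597 bp covered, 366 bp in replicate 1 and 6037 bp in replicate 2, or 0.440% of the gene in the replicated list. It was the most unequal between replicates of the genes marked in both.

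The Arl GTPases of cilia had little or no coverage. This was not particular to them, since 10 of all 20 Arl GTPases had no base under the replicated list. Arl3, which releases lipidated cargo in the cilium, had 540 bp of its first 3 kb in the replicated list, none in replicate 1 and 544 bp in replicate 2. Arl13b, mutated in Joubert syndrome, had 629 bp, none and 412 bp, and overlaps Stx19. The replicated peak, 1285 to 1913 bp from the 5′ end, overlapped no peak of the other 3 lists, and replicate 2's peak lay at 266 to 677 bp. Arl6, mutated in Bardet-Biedl syndrome, and Arl2bp, a partner of Arl2 and Arl3, had none in any list, as did Arl2, which acts in tubulin folding. Arl3, Arl13b and then Sec61a2 at 752 bp were the marked genes nearest to the 200 bp threshold. No unmarked gene had any base of its window under the replicated list.

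Arl13a, Arl14 and Arl9 also had no covered base in any list. Arl10 and Arl16 had 1623 bp and 1335 bp of their first 3 kb in replicate 2, 1006 bp and 1134 bp in the pooled list, and none in replicate 1. Arl16 starts 28 bp from the divergent Hgs, an endosomal sorting gene with 2963 bp covered in the replicated list.

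The Arl-binding genes encode partners of these GTPases. Arl6ip5 had 18290 bp (80.8%) covered in the replicated list, 15912 bp in replicate 1 and 19263 bp in replicate 2. Arl6ip1, which shapes ER tubules, had 8223 bp, 6486 bp and 8349 bp, with a fold of 26.0. Arl14ep had 5906 bp, 4007 bp and 5918 bp. Arl6ip6 had 5847 bp, 1582 bp and 10485 bp. These 4 were marked in every list. Arl6ip4 had 1262 bp, none and 1575 bp. Arl14epl had no covered base.

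**Figure D3:**
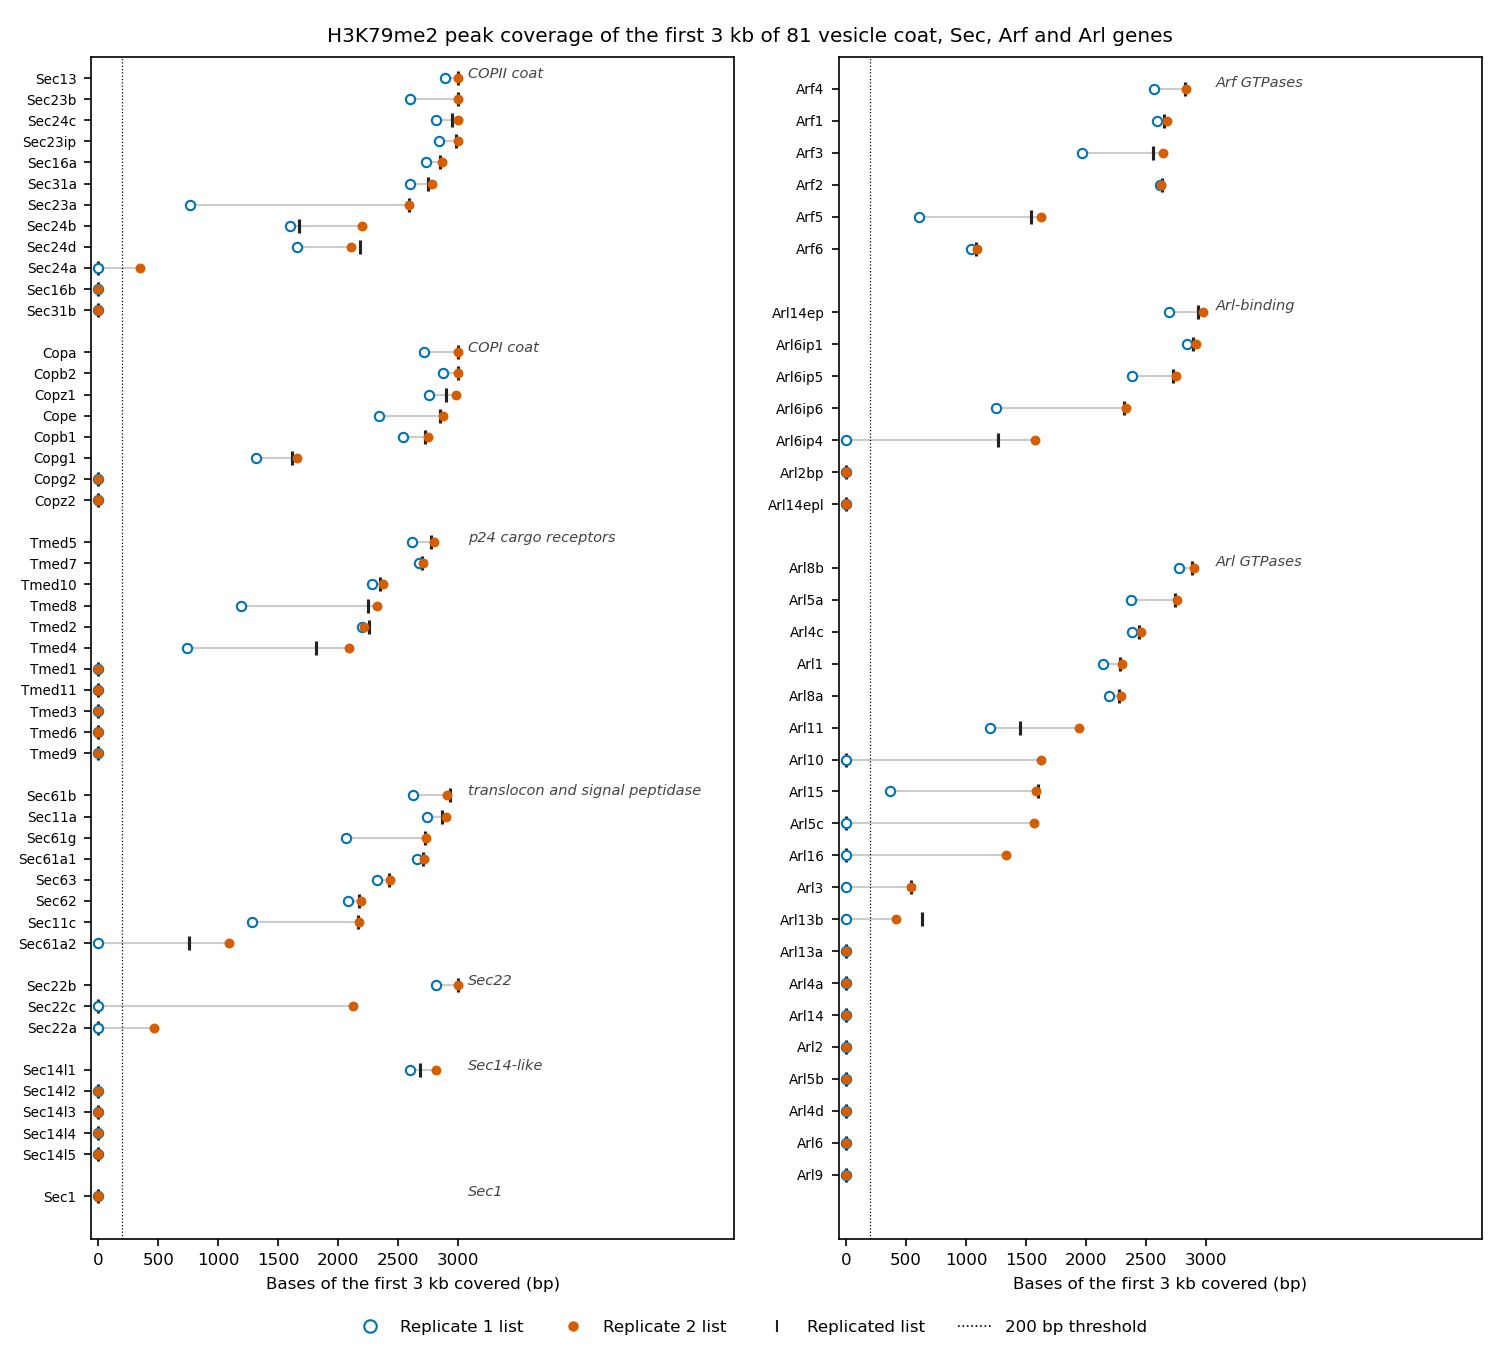
Bases of the first 3 kb covered (horizontal axis, bp) for each of the 81 genes, by family, in replicate 1's list (open circles), replicate 2's list (filled circles) and the replicated list (ticks). Most marked genes lie between 2000 and 3000 bp in both replicates, and 10 genes sit at 0 in replicate 1 and above the 200 bp line in replicate 2.

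In all 47 genes marked in both replicates, more bases of the gene lay under replicate 2's list. The median of replicate 1's covered bases was 68.9% of replicate 2's, against 62.1% over the 5962 coding genes marked in both, of which 5864 had more bases in replicate 2. The most equal were Arf1 (96.0%), Arf6 (95.1%) and Tmed10 (90.2%). The least equal were Arl15 (6.06%), Arl6ip6 (15.1%), Sec23a (20.6%) and Tmed7 (21.7%).

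Marked in replicate 2 and not in replicate 1 were 10 genes (12.3% of the 81, against 8.41% of all coding genes). None was marked in replicate 1 alone, which is close to the state of all coding genes: 5962 of the 5975 marked in replicate 1 were marked in both. Of the 10, the replicated list marked Sec61a2, Arl6ip4, Arl13b and Arl3, and did not mark Sec24a, Sec22a, Sec22c, Arl10, Arl16 and Arl5c. Sec24a is among them by its outermost end alone, and its coding starts were covered in both replicates. Replicate 2's list covers 114 Mb against 63.5 Mb, and the part of that width in these 10 differences was not tested.

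Coverage began a short way into the gene. The first covered base of the marked genes lay a median of 297 bp from the 5′ end in the replicated list, and ranged from 0 to 2089 bp, the last at Arl3. Sec13, Sec23b, Copb2, Copa, Cope and Sec22b were covered from the first base in that list. Replicate 1's list covered no marked gene from its first base, the nearest beginning at 109 bp, and replicate 2's list covered 9. At Copa and Cope all 1000 bp upstream were covered as well, and at Cope the gap of 154 bp followed the first bases. Marked genes were chosen by coverage of the first 3 kb, so high coverage there follows in part from that choice. In 500 bp steps, 43.5% of the bases of marked members were covered from 0 to 500 bp, 94.1% from 1000 to 1500 bp and 68.6% from 5000 to 5500 bp. The same steps in all marked coding genes gave 34.2%, 89.1% and 62.2%. Further in the order turned in the replicated list: 42.6% against 48.3% from 8500 bp, 35.1% against 47.1% from 9000 bp, and 18.2% of the 33 members long enough against 31.3% from 19500 bp.

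**Figure D4:**
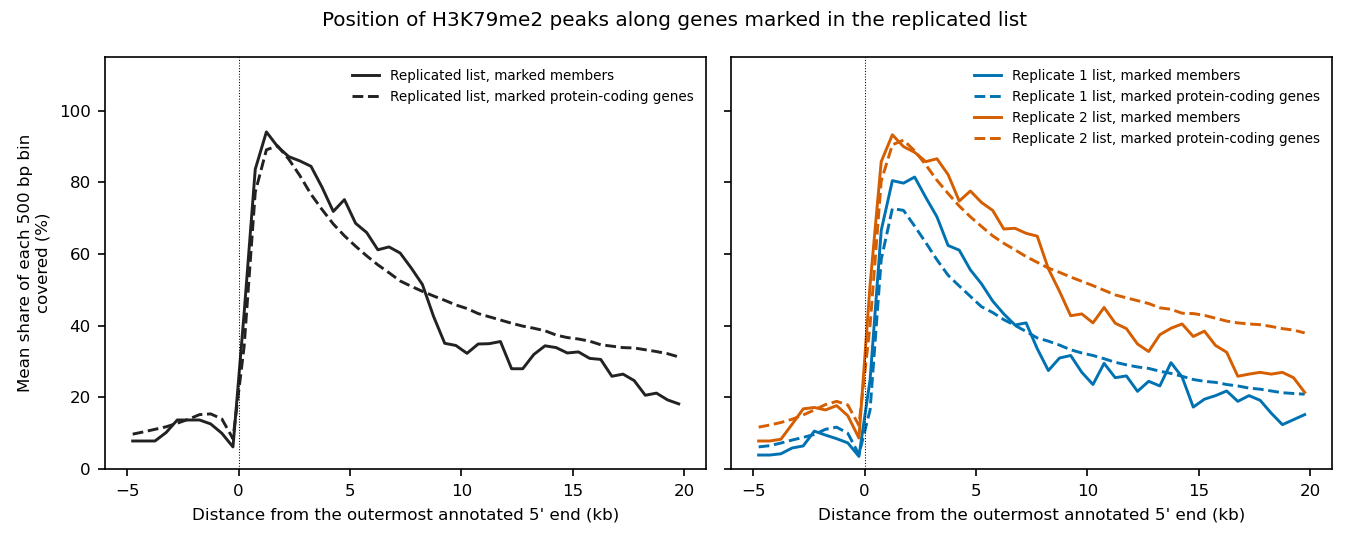
Percent of bases covered by the replicated list (vertical axis) in 500 bp steps from 5 kb upstream to 20 kb downstream of the outermost 5′ end (horizontal axis), for marked members and for all marked coding genes. Coverage is 6.18% in the last 500 bp upstream of the members, peaks at 94.1% from 1000 to 1500 bp, and lies below that of all marked genes from 8500 bp. Both sets of genes were chosen by coverage of the first 3 kb.

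Among the 51 marked genes the length covered by the replicated list ran from 540 to 41071 bp, with a median of 7631 bp against 6118 bp over all marked coding genes. The median share of the gene covered was 38.6% against 33.9%. At least 50% of the gene was covered in 19 of them, and less than 20% in 14. The median share among marked genes was 66.4% in the Arf family, 44.9% in p24, 41.9% in the translocon and signal peptidase genes, 20.9% in COPI and 19% in COPII. By these medians coat genes were covered over a smaller part of their length than the Arf genes, which was not tested. Marked COPII genes ranged from 6.19% to 39% and Arf genes from 50.7% to 97.9%, while COPI genes, at 6.26% to 60.5%, overlapped the Arf range. The Arf genes are 1634 to 27011 bp long, and the marked COPII genes reach 98187 bp. Exons held 13.5% of the covered bases and 13.9% of all bases of the marked members.

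**Figure D5:**
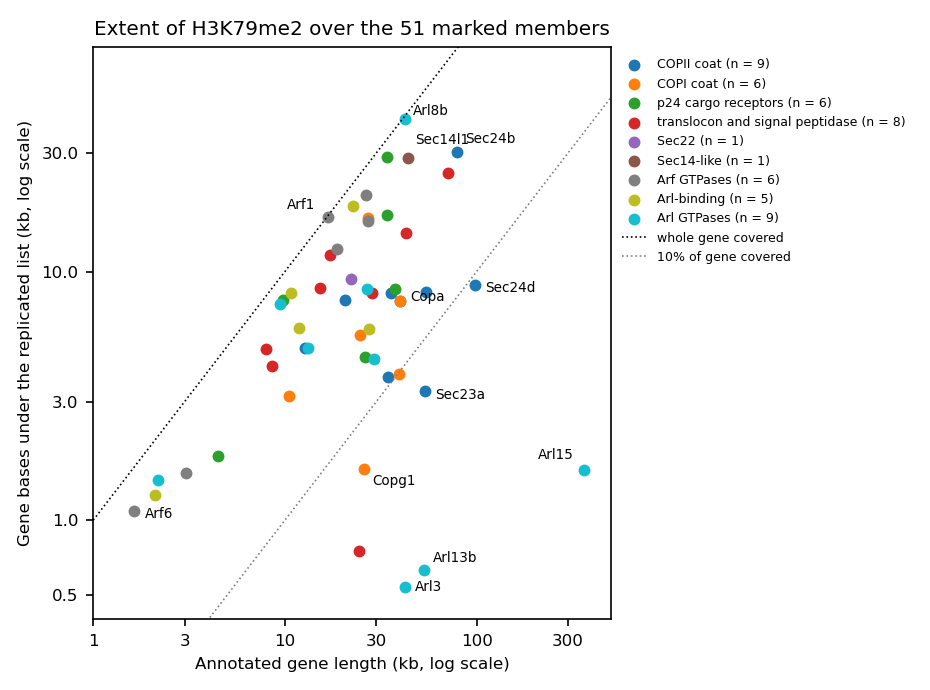
Gene bases under the replicated list (vertical axis, kb) against gene length (horizontal axis, kb), both on log scales, for the 51 marked members coloured by family. The dotted lines show 100% and 10% of the gene covered: Arf1 and Arl8b lie on the upper line, and Sec23a, Copg1 and Arl15 below the lower one.

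Within the replicated list the highest peak touching the first 3 kb had a median fold of 15.7 in the members. The median was 11.9 over all 6726 coding genes with such a peak. The fold belongs to the peak, which can run beyond that window. In the highest 10% (678 genes) stood 9 members. After Arf1 these were Tmed10 and Arl8b (both at rank 72), Arl8a (92), Copa (200), Sec11c (338), Tmed2 (395), Arl6ip1 (550) and Arl4c (594). They come from 6 of the 10 families.

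CpG-rich starts were found at 67.9% of the members, against 44.4% of all coding genes. CpG-rich here means that, over 500 bp on each side of the start, CpG occurred at 0.6 or more of its expected frequency and GC made up 50% or more of the bases. Of 55 members with such a start, 43 (78.2%) were marked, against 54.1% of 9742 CpG-rich starts among all coding genes. Of the 26 other members 8 (30.8%) were marked, against 11.4% of 12196. Those 8 were Copg1, Sec24b, Tmed4, Sec11c, Sec61g, Arl11, Arl14ep and Arl6ip5. The 12 unmarked CpG-rich genes were Copg2, Copz2, Tmed3, Sec22a, Sec1, Arl2bp, Arl10, Arl16, Arl2, Arl4a, Arl4d and Arl6.

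The RefSeq promoter table, 250 bases before to 50 after each start, matched 69 of the 81 genes, with 81 promoters. Short motifs were searched on both strands. TGACGTG, a core of the sites bound by ATF6 and XBP1 in the ER stress response, was in 7 of the members' promoters (8.64%) and in 2.01% of all 32851. It lay in Arf1, Copb1, Copb2, Sec16b, Sec23a and Sec24d, of which all but Sec16b were marked, beside 63% of all 81 members. The 7 promoters count the same Arf1 site from overlapping promoters of that gene. GTCACGTG, which contains the E-box read by TFEB and USF proteins, was in 6 (7.41%, against 2.25%), in Arf5, Arl2, Arl5b, Sec23ip, Sec62 and Tmed10. Of these genes 4 were marked. TGACGTCA, the CREB site, was in 3 (3.70%, against 1.79%), and 1 of those genes was marked.

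The TGACGTG windows of the coat genes are shown, because coat genes carry 5 of the 6 genes' matches, with the motif in capitals. Each has 30 bases on the gene's strand, where CACGTCA is the motif read on the other strand. They lie at chr3:123267459-123267488 for Sec24d, chr12:59011993-59012022 for Sec23a, chr7:114254689-114254718 for Copb1, chr9:98563714-98563743 for Copb2 and chr1:157506741-157506770 for Sec16b. The Arf1 window is at chr11:59228228-59228257. The Cope window (chr8:70302546-70302575) holds TGACGTCA inside the 154 bp gap between the peaks of Cope and Ddx49. A match of letters is a description and not a bound site. Of the 52 RefSeq promoters of marked members, 36 were free of replicated-list peaks and 5 lay wholly under one.
Sec24d: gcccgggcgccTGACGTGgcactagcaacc
Sec23a: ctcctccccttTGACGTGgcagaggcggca
Copb1: ccgcccccttcCACGTCAgccaaggacttg
Copb2: cccggaagttcCACGTCAgtgggttggccg
Sec16b: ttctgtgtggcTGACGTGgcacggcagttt
Arf1: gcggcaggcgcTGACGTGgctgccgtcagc
Cope: gcggaggaatgTGACGTCAcggagagaccc

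The remaining motifs included the GC box and the TATA box. GGGCGG was in 53 of the members' 81 promoters (65.4%) and 35.7% of all, CCGGAAG in 16 (19.8%, against 8.86%) and CCAAT in 38 (46.9%, against 37.4%). TATAAA was in 3 (3.70%, against 13.6%), those of Arl14, Arl15 and Sec31a. The full ER stress element, CCAAT and CCACG 9 bases apart, was in none of them and in 39 promoters in all. The NRF1 site was in none of them and in 0.971% of all. CpG-rich starts were more frequent among the members than among all coding genes, and their part in the motif shares was not tested.

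A second coding gene started within 1 kb in the opposite direction at 8 members (9.88%, against 6.78% of all coding genes). Of these 8, 6 (75%) were marked, against 55.8% of the 1487 coding genes with such a neighbour. At Cope, Tmed7, Sec61b and Arl6ip6 both genes of the pair were marked by the replicated list. At Tmed5 and Arl3 only the member was marked, and at Sec24a and Arl16 only the neighbour was, Sar1b and Hgs.

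When the start of any annotated transcript could count, 54 members were marked (66.7%, against 32.9% of all coding genes). The 3 added were Sec24a, Tmed9 and Arl5b. No base of the gene lay under the replicated list in 27 members (33.3%, against 65.9% of all coding genes), and under any of the 4 lists in 22 (27.2%, against 60.1%).

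The rest of the secretory pathway, 189 genes in 8 lists taken by symbol, had 134 marked genes in the replicated list (70.9%, against 30.3% of all coding genes), with a median of 22.6% of the gene covered against 17.2% over the 81 members and 0% over all coding genes. The members' median was 10.3% in replicate 1's list and 23.8% in replicate 2's. By list, 15 of 19 COPII and COPI partners were marked, 23 of 28 signal recognition particle and translocon partners, 29 of 36 early SNAREs and tethers, and 8 of 9 exocyst genes. Cargo receptors had 8 of 14, clathrin and adaptors 19 of 30, Arf exchange factors and GTPase-activating proteins 20 of 33, and Arf and Arl effectors 12 of 20. Rab1a, the Rab of ER-to-Golgi transport, was covered over 25047 bp (98.5%), and Cltc, the clathrin heavy chain, over 59338 bp (93.9%).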

How the data were processed

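Peaks were taken from 4 lists on mm10 that the authors deposited: 1 per replicate, 1 on pooled reads and the replicated list. How the replicated list was made, and with which aligner and caller, is not given in the sources that were used here. The deposited display score was set aside. Each peak's fold over the control and its −log10 q are values by the authors, with a normalization that is not stated. Fold ranked and filtered peaks of 1 list at a time. The q values served to count peaks with q over 0.05, which were 3 in the replicated list, 12 in the pooled list, 5 in replicate 1's and 9 in replicate 2's.

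Overlapping peaks of a list were joined and compared with GRCm38 with GENCODE genes on chromosomes 1 to 19, X and Y, using numpy 2.4.6, pandas 2.3.3 and pysam 0.24.0. The coverage code was tested on simulated data against a count of single bases. Covered bases were counted over the first 3 kb from the outermost 5′ end, or a shorter whole gene, and over the gene. With 1 group, peaks without read counts and an unknown depth, no test was run. Alternatives changed the list, the fold filter, the minimum (1 or 1000 bp), the window (1 kb), the start and the genes counted.

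The 81 genes were named by the symbol rule, and up to 2 marked and 2 unmarked genes of each pathway list could be named. The members and lists were chosen with earlier results of these data known. Protein sequences of the paralogues were not analysed here.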

Additional observations from a re-analysis of the deposited data

How the results depend on the processing

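Of 103 recomputed counts of genes, 99 stayed within 1.5 times of the count reported. Some of these could not move: Sec1 had no covered base in any list, and no unmarked gene had a base of its window under the replicated list. A fall from 9 to 6 Arl GTPases also stayed within that limit. Without replicate 2 or without replicate 1 the count of marked members ran from 47 to 57 and that of Sec22 genes from 1 to 3. Marked Arl GTPases ran from 7 to 12 of 20, against 9 in the replicated list. The median share of the gene covered ran from 10.3% to 23.8%, against 17.2% in the replicated list. Requiring the median fold gave a median share of 10.9% and 6 marked Arl GTPases against 9. The pooled list marked 2 Sec22 genes against 1 in the replicated list. Counting only members that overlap no other coding gene left 3 marked p24 genes of 6 (6 of 11 before) and 3 marked Arf genes of 3 (6 of 6 before). Requiring the median fold marked 43 of the 81 members, and 22.3% of all coding genes. A 1 kb window marked 46 members, and 25.0% of all coding genes. A minimum of 1000 bp marked 48 members, and 28.7% of all coding genes. Leaving out Sec1, the Sec14-like and the Arl-binding genes gave 45 of 68, beside 30.3% of all coding genes. No paired analysis was possible because there is 1 group of samples. The number of reads is unknown, so a gene without a peak may lie under the limit of detection.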
